A study of Mus musculus with 9 samples.

Results

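The genes that build ribosomes were examined in ribosome footprints of 3 immortalized mouse striatal cell lines. Members were taken by symbol from the deposited gene table. They were the Polr1 genes with a letter, the Nop, Utp, Rrp and Nol genes with a number, and Fbl, Ncl, Npm1, Dkc1, Nhp2, Gar1, Bop1, Pes1, Wdr12, Ubtf, Nolc1 and Rrn3. This rule took 54 of 36410 rows, and it used no measured value. The row Utp11l carries an older symbol of Utp11 and differed from the Utp11 row by at most 1 count in a library, so the rows stand for 53 genes. Of these, 50 have an established role in ribosome assembly or RNA polymerase I transcription, and 3 (Nol3, Nol4 and Nol4l) share only the nucleolar name. A filter on low counts was passed by 52 of the 53 genes.

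Ribosome profiling counts the mRNA fragments that ribosomes shield from nuclease. All 3 lines are STHdh cells of the strain labelled C57/BL6 with a knock-in Htt exon 1. Control cells (STHdhQ7/Q7) carry 7 glutamine repeats on both alleles, HD-het cells (STHdhQ7/Q111) carry 7 on 1 allele and 111 on the other, and HD-homo cells (STHdhQ111/Q111) carry 111 on both. Each line was cultured in 3 independent rounds, treated with cycloheximide for 10 min, and profiled from the 80S monosome fraction with fragments of 26 to 32 nt, giving 9 libraries. Each genotype was 1 line, so genotype and line cannot be told apart, and since mRNA libraries were not analysed here, a footprint level is not split into mRNA amount and ribosomes per mRNA.

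Ribosome assembly begins in the nucleolus, where RNA polymerase I transcribes the long precursor of the ribosomal RNAs. Small nucleolar ribonucleoproteins modify that precursor: box C/D particles methylate riboses and box H/ACA particles convert uridine to pseudouridine. The small subunit processome and a separate set of large subunit factors then fold and cut the RNA while ribosomal proteins join it. In growing cells this pathway takes up a large part of transcription and translation, and MYC is a well known activator of many of its genes.

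Library totals ran from 22504543 to 41888701 counts, so that 3 counts, the limit that a count of 0 allows, corresponded to 0.0716 to 0.133 CPM (counts scaled to a common library size of 1e6). This limit covers counting error only, since amplified fragments are not independent molecules. Replicates of HD-homo cells were the least alike, with a biological coefficient of variation of 16%, beside 8.81% for control and 10.7% for HD-het. Of 21 markers of striatal projection neurons and their precursors, 8 had at most 3 counts in every library, among them Drd1, Drd2 and Bcl11b, and the summed level of the list ran from 93.1 to 104 CPM for control, 99.0 to 119 for HD-het and 112 to 138 for HD-homo. The label striatal was thus not borne out by several defining markers of striatal projection neurons, but not all such markers were absent. Ppp1r1b encodes DARPP-32, which the paper uses as a marker of medium spiny neurons. Its lowest mean was 5.18 ± 1.65 CPM (SD, n = 3), in HD-het cells. Its log2 fold change against control was -1.22 ± 0.47 there (adjusted p = 0.0400) and -0.19 ± 0.44 in HD-homo cells (adjusted p = 0.755). A list of 7 neural precursor markers summed to 9610 to 9877 CPM for control, 9035 to 9864 for HD-het and 6081 to 6587 for HD-homo. Most of it was Vim, which mesenchymal cells also express. Nes, the nestin gene of neural precursors, stood at 400 ± 82.7 CPM for control, 1086 ± 77.8 for HD-het and 7.01 ± 0.611 for HD-homo (SD, n = 3), a fall in HD-homo cells of -5.83 ± 0.17 against control on the log2 scale (adjusted p = 8.17e-10).

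Footprints of the ribosome assembly genes were low in HD-het cells and near the control level in HD-homo cells. The 53 members together held 14101, 13400 and 13767 CPM in the control libraries, 7680, 7545 and 8859 CPM in the HD-het libraries, and 13820, 13644 and 14973 CPM in the HD-homo libraries. The HD-het libraries lay far below all others, and the control and HD-homo libraries overlapped. On average the HD-het sum was 58.4% of control and the HD-homo sum 103%. Without Ncl and Npm1, the most abundant members, the shares were 61.8% and 102%.

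Against control, 44 of 52 tested members fell in HD-het cells and 1 rose, where 29.1% of all genes tested fell and 31% rose (edgeR's quasi-likelihood test, Benjamini-Hochberg adjusted p under 0.05 over 12678 genes). Their median log2 fold change was -0.75, against 0.02 for all genes tested. A fall of at least 2-fold was found in 16 members, and 6.91% of all genes fell that far. In HD-homo cells 7 members rose and 4 fell against control, a median of 0.02, where 23.3% of all genes rose and 22.3% fell. Between the mutant lines, 43 members stood higher in HD-homo cells and 0 in HD-het cells, beside 34.6% and 32.8% of all genes, with a median of 0.71. DESeq2 also gave 0 members higher in HD-het here, and 2 were so at an unadjusted p under 0.05 in edgeR. Both mutant lines were compared with the same control libraries, and both the falls in HD-het cells and the differences between the mutant lines use the same HD-het libraries, so these counts are not independent.

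Read over all 3 lines, 47 members differed among lines, where 78.4% of all genes did. HD-het held the lowest mean for 48 members, a count for which no share of all genes was taken. Called lower in HD-het than in both other lines were 40 members, a pattern that 21.9% of all genes met. Every HD-het library lay below every other library for 41 of 52 members, and for 24.8% of all genes tested. Within HD-het cells the libraries were not alike: of the 50 assembly genes, 42 were highest in replicate 3 and 33 were lowest in replicate 2. In HD-homo cells 31 were lowest in replicate 2. These ranks were not taken over all genes, so they cannot be read as a trait of the members. Leaving out any one library, those named here included, ended none of the 45 calls in HD-het cells against control.

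**Figure D1:**
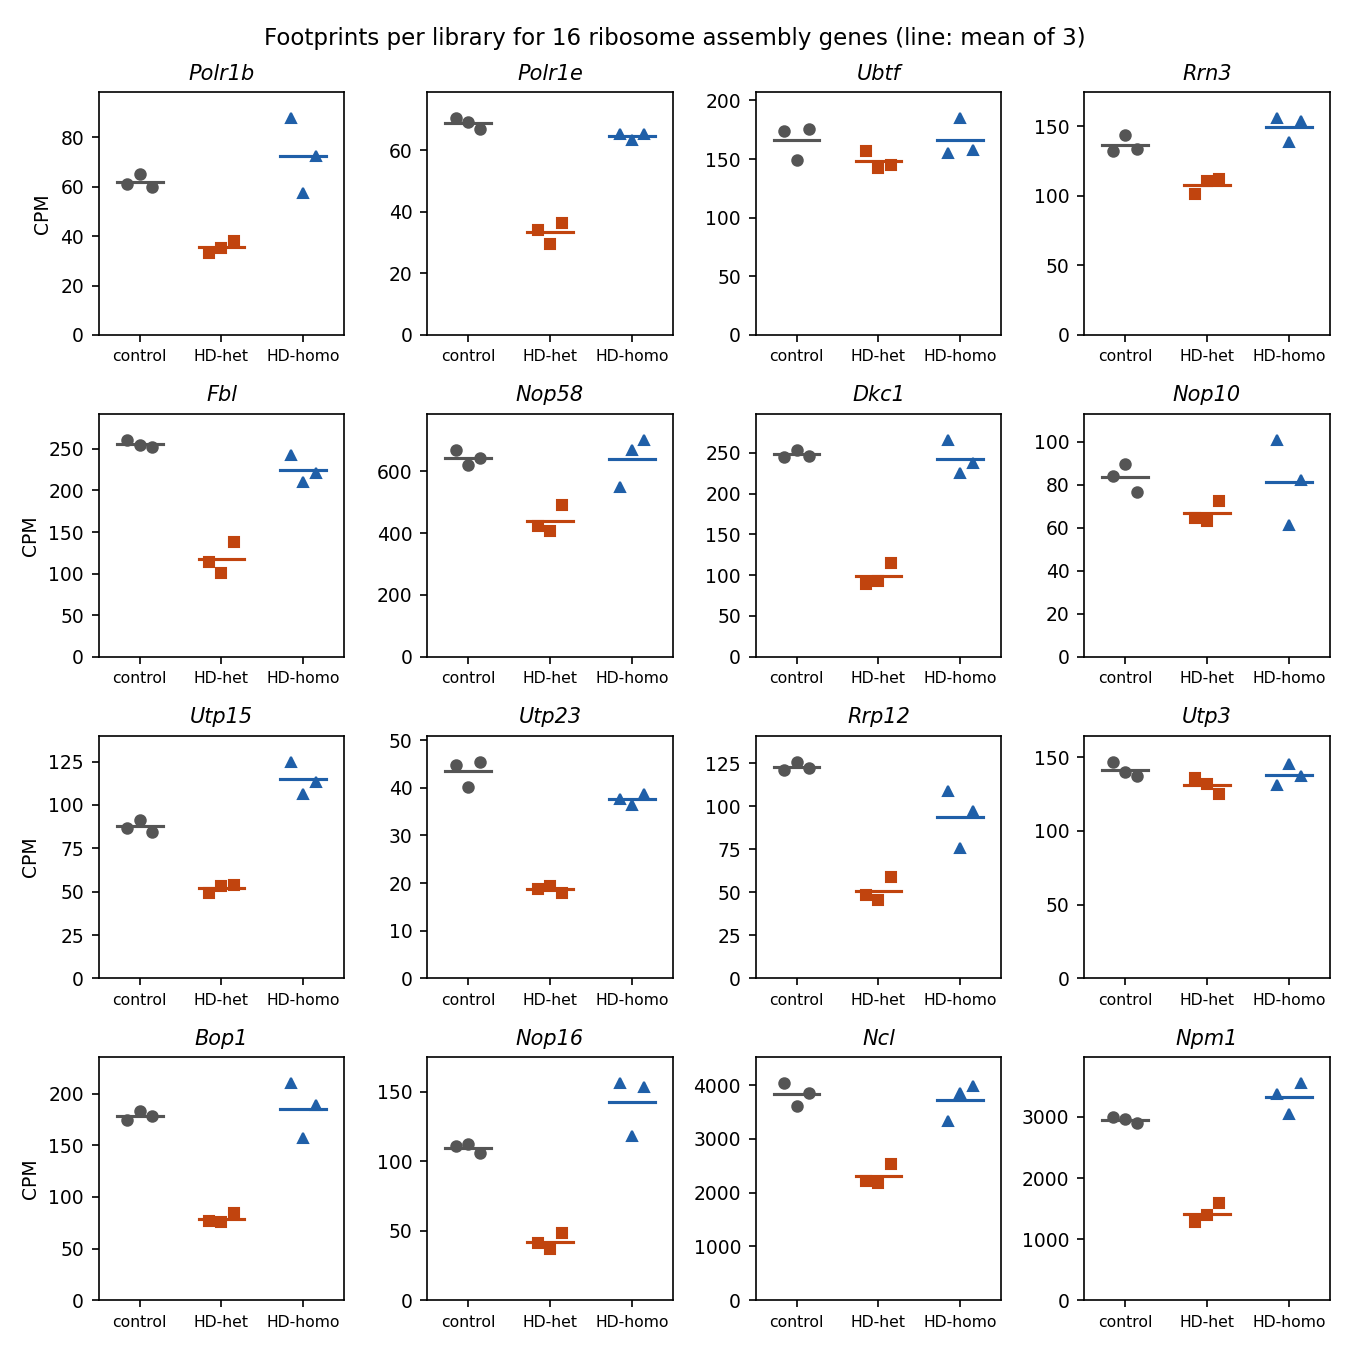
Footprint level (CPM, axes from 0) of 16 ribosome assembly genes in each of the 9 libraries, with 3 points per line and a bar at their mean. For 13 of the 16 genes the HD-het points lie below all others, and Ubtf, Nop10 and Utp3 are the exceptions.

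Promoters were inspected because so many of these genes were low in 1 line. Of the 50 assembly genes, 41 had an entry in the RefSeq promoter table (build GRCm38.p6, 250 bases before to 50 after the start, first listed promoter of each gene). The E-box CACGTG, a palindrome and thus the same on both strands, was present in 9 of these 41 promoters (22%) and in 7.24% of 27025 promoters in the table. The letters CCGGAAG, a sequence of the kind that ETS factors bind, were present on either strand in 15 of 41 (36.6%) and in 9.12% of the table. Both motifs occurred in 4 of the 41, and a match to one cannot overlap a match to the other. Among genes with the E-box 8 of 9 fell in HD-het cells (median of their log2 fold changes -0.77), and among those without it 26 of 32 fell (median -0.66). With and without CCGGAAG, 14 of 15 and 20 of 26 fell. The promoter table is not limited to the 12678 genes tested here, and the share among those was not taken. A match is a description of letters and not of a bound site. The following 30-base windows, 5′ to 3′ on the gene's strand, show where the E-box (capitals) sits in genes that fell in HD-het cells and, for Utp14b, in 1 that did not.
Rrn3 (chr16:13780639-13780668, + strand, first base of the box at -48): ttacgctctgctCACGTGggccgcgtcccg
Nop2 (chr6:125131811-125131840, + strand, at -60): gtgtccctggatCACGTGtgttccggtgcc
Nol11 (chr11:107189407-107189436, - strand, at -43): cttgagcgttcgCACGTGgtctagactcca
Utp18 (chr11:93885769-93885798, - strand, at -20): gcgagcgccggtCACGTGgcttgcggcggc
Utp4 (chr8:106893643-106893672, + strand, at 16): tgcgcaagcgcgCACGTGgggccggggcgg
Pes1 (chr11:3963965-3963994, + strand, at 3): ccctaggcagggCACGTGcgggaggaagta
Utp14b (chr1:78658365-78658394, + strand, at -63): cgcgggcgcgggCACGTGggtggggtcgtc
Positions are counted from the transcription start, so the boxes of Utp4 and Pes1 lie just inside the first exon. Rrn3 held another E-box at -215, and the boxes of Utp20 and Rrp7a began at 38 and -208.

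RNA polymerase I makes the ribosomal RNA precursor, and its genes were the first group read. Of 7 members, 6 fell in HD-het cells (median -0.81) and 0 of 7 were called in HD-homo cells against control (median -0.09). In that comparison DESeq2 also called 0, and 1 was lower at an unadjusted p under 0.05 in edgeR. The summed level was 67.4% of control for HD-het and 96.2% for HD-homo. Polr1a encodes the largest, catalytic subunit. Its level was 148, 156 and 156 CPM in control, 96.6, 93.9 and 112 CPM in HD-het and 142, 134 and 129 CPM in HD-homo cells. The HD-het libraries were the lowest, and the HD-homo libraries lay between them and control, below every control library. Its log2 fold change was -0.61 ± 0.09 (SE) in HD-het cells (adjusted p = 0.000104) and -0.18 ± 0.08 in HD-homo cells (adjusted p = 0.0985).

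Polr1b encodes the second largest subunit, which shares the active site. It stood at 60.9, 65.2 and 59.7 CPM in control, 33.1, 35.2 and 38.0 CPM in HD-het and 87.8, 57.3 and 72.6 CPM in HD-homo cells. The HD-het libraries were well separated, and HD-homo replicate 1 was high while replicate 2 lay below control. The change was -0.81 ± 0.13 in HD-het cells (adjusted p = 0.000356) and 0.23 ± 0.13 in HD-homo cells (adjusted p = 0.183). Polr1c and Polr1d encode the assembly platform that RNA polymerases I and III share. Polr1c was at 94.4, 89.6 and 91.2 CPM in control, 47.8, 51.1 and 54.9 CPM in HD-het and 83.6, 73.3 and 81.8 CPM in HD-homo cells, with the 3 lines in separate ranges. Polr1d was at 170, 136 and 182 CPM, 90.6, 80.6 and 100 CPM, and 114, 155 and 156 CPM, with control and HD-homo overlapping. Polr1c fell by 0.84 on the log2 scale in HD-het cells (SE 0.08, adjusted p = 8.87e-06), and Polr1d by 0.85 (SE 0.14, adjusted p = 0.000408).

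Polr1e encodes a subunit that acts in initiation and elongation and fell the most among the polymerase genes. Its level was 70.4, 69.1 and 66.7 CPM in control, 34.0, 29.6 and 36.4 CPM in HD-het, and 65.3, 63.3 and 65.1 CPM in HD-homo cells. Replicates of each line were tight, and the HD-het libraries were far apart from the rest (log2 fold change -1.05 ± 0.09, adjusted p = 2.89e-06). Rrn3 encodes the initiation factor TIF-IA, which brings the polymerase to the promoter. It stood at 132, 144 and 134 CPM in control, 101, 111 and 112 CPM in HD-het and 156, 139 and 154 CPM in HD-homo cells. The fall in HD-het cells was modest but without overlap (-0.34 ± 0.08, adjusted p = 0.00363). Ubtf encodes the upstream binding factor that coats active ribosomal DNA. With 174, 149 and 176 CPM in control, 157, 142 and 145 CPM in HD-het and 155, 185 and 158 CPM in HD-homo cells, all 3 lines overlapped, and no comparison passed the threshold (HD-het against control -0.17 ± 0.10, adjusted p = 0.154).

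Box C/D particles are built around the methyltransferase fibrillarin (Fbl) with the scaffold proteins Nop56 and Nop58, and 3 of 3 members fell in HD-het cells. Fbl was at 261, 255 and 252 CPM in control, 114, 101 and 138 CPM in HD-het and 243, 210 and 221 CPM in HD-homo cells. All HD-homo libraries lay slightly below control, and the HD-het libraries lay far below both. The log2 fold change was -1.12 ± 0.11 in HD-het cells (adjusted p = 8.46e-06) and -0.19 ± 0.11 in HD-homo cells (adjusted p = 0.183). Nop58, the most abundant of the 3 per kilobase of coding sequence, stood at 668, 619 and 644 CPM, 422, 407 and 490 CPM, and 550, 668 and 702 CPM. Its fall in HD-het cells was smaller (-0.55 ± 0.11, adjusted p = 0.000917), and control and HD-homo overlapped. Nop56 was at 343, 339 and 343 CPM in control, 181, 191 and 266 CPM in HD-het and 331, 236 and 362 CPM in HD-homo cells. HD-het replicate 3 lay above HD-homo replicate 2, so the mutant lines overlapped, while HD-het and control did not (-0.69 ± 0.17, adjusted p = 0.00421).

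Box H/ACA particles carry the pseudouridine synthase dyskerin (Dkc1) with Nhp2, Nop10 and Gar1, and they also form part of telomerase. Among the role groups they had the lowest summed level in HD-het cells, 49.0% of control, beside 103% in HD-homo cells. Dkc1 was at 245, 254 and 246 CPM in control, 88.6, 92.9 and 115 CPM in HD-het and 266, 225 and 238 CPM in HD-homo cells. The HD-het libraries were low throughout, and control and HD-homo overlapped. The log2 fold change was -1.33 ± 0.11 in HD-het cells (adjusted p = 2.05e-06) and -0.03 ± 0.10 in HD-homo cells (adjusted p = 0.837). Gar1 stood at 99.5, 105 and 106 CPM, 47.0, 42.1 and 52.2 CPM, and 104, 109 and 105 CPM, a pattern close to that of Dkc1 (-1.14 ± 0.09 in HD-het cells, adjusted p = 1.56e-06). Nhp2 was at 141, 138 and 137 CPM, 63.6, 58.7 and 83.2 CPM, and 179, 139 and 159 CPM (-1.02 ± 0.13 in HD-het cells, adjusted p = 5.39e-05).

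Nop10, the smallest subunit of that particle, did not pass the threshold. Its level was 84.1, 89.9 and 76.5 CPM in control, 64.7, 63.1 and 72.7 CPM in HD-het and 101, 61.3 and 82.2 CPM in HD-homo cells. The HD-het libraries were below control, and the HD-homo libraries spanned both (HD-het against control -0.32 ± 0.15, adjusted p = 0.0879; with unscaled library totals, -0.37 and past the threshold). Because footprints per kilobase of coding sequence can be set against each other within a library, 12 ratios of partner genes were computed. Nop10 over Dkc1 was 2.74, 2.81 and 2.47 in control, 5.81, 5.40 and 5.03 in HD-het and 3.03, 2.16 and 2.75 in HD-homo cells. Every HD-het library thus stood above every other library (exact permutation test, 2-sided, p = 0.100, the smallest that 3 libraries against 3 allow).

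Other partners also moved unequally in HD-het cells. Nop58 over Fbl per kilobase averaged 1.53 ± 0.0465 for control, 2.29 ± 0.150 for HD-het and 1.75 ± 0.322 for HD-homo (SD, n = 3). Rrn3 over Polr1b averaged 3.81 ± 0.0629, 5.28 ± 0.198 and 3.64 ± 0.565, and Wdr12 over Bop1 averaged 1.37 ± 0.0917, 2.05 ± 0.0554 and 1.25 ± 0.156 (SD, n = 3). Of the 12 ratios, 11 were without overlap between HD-het and control, each at the smallest possible exact p of 0.100. Nop58 over Nop56 overlapped (exact p = 0.300). In every pair the denominator gene had the larger fitted fall in HD-het cells, so a higher ratio restates the fold changes. The pairs were picked by hand, several share a denominator, and no share among other gene pairs was taken. After Benjamini-Hochberg adjustment no ratio could pass 0.05 in this design. In HD-homo cells 10 of the 12 ratios overlapped control, and the exceptions were Nhp2 over Dkc1 (2.17 ± 0.100 against 1.86 ± 0.0586) and Polr1a over Polr1b (1.26 ± 0.252 against 1.64 ± 0.0803).

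**Figure D2:**
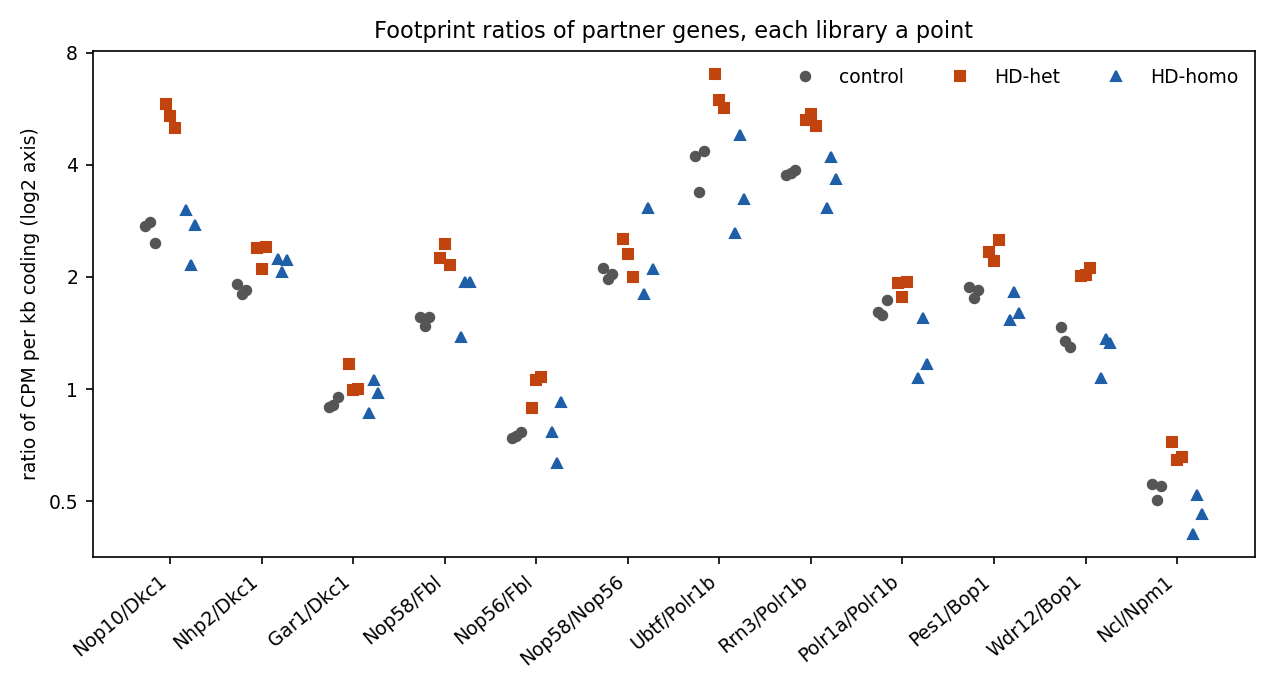
Ratio of footprints per kilobase of coding sequence between partner genes in each of the 9 libraries, on a log2 axis. The HD-het points lie above the control points for all pairs but Nop58/Nop56, and Nop10/Dkc1 moves from 2.67 in control to 5.41 in HD-het on average.

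The small subunit processome is the large particle that forms on the front part of the precursor RNA, and the 20 members of this group include factors of later 40S maturation. Of them, 17 fell in HD-het cells (median -0.61) and 16 differed between the mutant lines, all with the higher level in HD-homo. Their summed level was 66.4% of control for HD-het and 106% for HD-homo. Rrp12, a HEAT-repeat factor of 40S maturation and export, fell the most. It was at 121, 126 and 122 CPM in control, 48.2, 45.5 and 58.7 CPM in HD-het and 109, 75.6 and 97.1 CPM in HD-homo cells. Both mutant lines lay below control and did not overlap each other (HD-het -1.28 ± 0.13, adjusted p = 1.28e-05; HD-homo -0.39 ± 0.13, adjusted p = 0.0303). The HD-homo call was lost when any 1 of 5 libraries was left out, with an adjusted p of up to 0.0827.

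Utp23, a PIN-domain protein needed for early cuts, stood at 44.7, 40.1 and 45.5 CPM in control, 18.8, 19.4 and 17.9 CPM in HD-het and 37.6, 36.4 and 38.7 CPM in HD-homo cells. The HD-het libraries were closely grouped at under 20 CPM (-1.21 ± 0.09, adjusted p = 8.76e-07), and the HD-homo libraries lay below control without passing the threshold (-0.21 ± 0.08, adjusted p = 0.0618). Utp4, a WD-repeat protein of the UTP-A subcomplex, was at 208, 228 and 225 CPM, 92.8, 95.2 and 109 CPM, and 275, 224 and 346 CPM. Its change between the mutant lines was 1.51 ± 0.14 (adjusted p = 2.82e-06), and HD-homo overlapped control. Rrp9, a protein bound to the U3 snoRNA, was at 77.5, 68.8 and 81.1 CPM, 33.5, 29.3 and 41.6 CPM, and 91.3, 75.8 and 106 CPM. It also differed between the mutant lines (1.39 ± 0.15, adjusted p = 8.41e-06).

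Utp15 and Utp6 were lower than control in HD-het cells and higher in HD-homo cells. Utp15, another UTP-A protein, was at 86.8, 91.5 and 84.5 CPM in control, 49.1, 53.5 and 53.7 CPM in HD-het and 125, 106 and 113 CPM in HD-homo cells. The 3 lines fell into separate ranges (HD-het -0.75 ± 0.08, adjusted p = 2.14e-05; HD-homo 0.39 ± 0.08, adjusted p = 0.00277). This rise stayed past the threshold in every alternative fit. Utp6, a UTP-B protein, was at 202, 190 and 186 CPM, 145, 141 and 148 CPM, and 234, 216 and 249 CPM, again in separate ranges (HD-het -0.42 ± 0.08, adjusted p = 0.000777; HD-homo 0.27 ± 0.08, adjusted p = 0.0147). The HD-homo rise of Utp6 was lost without control replicate 2 (adjusted p = 0.0563), control replicate 3 (0.0585) or HD-homo replicate 3 (0.0560), and with offsets for GC content and length (0.0742).

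Nop9 showed the same pair of directions with a smaller rise. This RNA-binding factor of 40S assembly was at 43.2, 42.0 and 43.5 CPM in control, 26.5, 27.2 and 29.2 CPM in HD-het and 54.0, 44.8 and 54.8 CPM in HD-homo cells. The ranges were separate (HD-het -0.64 ± 0.09, adjusted p = 0.000157; HD-homo 0.26 ± 0.09, adjusted p = 0.0431), but the HD-homo call was lost when any 1 of 8 libraries was left out, with an adjusted p of up to 0.133, and without the filter (0.0811) or in a fit of 6 libraries (0.0661).

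Nop14, a factor of the small subunit processome, was 1 of 7 assembly genes not called in HD-het cells against control. It was at 184, 172 and 176 CPM in control, 185, 155 and 200 CPM in HD-het and 206, 228 and 247 CPM in HD-homo cells. HD-het overlapped control (0.02 ± 0.10, adjusted p = 0.898) and HD-homo was above both (0.35 ± 0.10 against control, adjusted p = 0.0163; lost without control replicate 2, 0.0591, or HD-homo replicate 3, 0.0627, and with offsets for GC content and length, 0.158). Utp20, a very large HEAT-repeat scaffold, was at 207, 220 and 206 CPM, 105, 117 and 145 CPM, and 161, 151 and 178 CPM. It fell in both lines (HD-het -0.79 ± 0.12, adjusted p = 0.000135; HD-homo -0.37 ± 0.11, adjusted p = 0.0210), and the HD-homo call was lost without control replicate 2 (0.0704) or HD-homo replicate 2 (0.0621), and with offsets for GC content and length (0.194).

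Utp14a, a partner of the helicase DHX37, was at 77.5, 72.7 and 72.2 CPM in control, 52.8, 55.4 and 66.4 CPM in HD-het and 59.3, 62.2 and 63.2 CPM in HD-homo cells. Both mutant lines were below control and overlapped each other (HD-het -0.35 ± 0.09, adjusted p = 0.00728; HD-homo -0.27 ± 0.09, adjusted p = 0.0356). Leaving out any control or HD-homo library ended the HD-homo call, with an adjusted p of up to 0.106. Utp14b is a retrocopy of Utp14a and shares exon sequence with Acsl3, so how reads were divided among them is uncertain. Utp14b, at 18.6 to 31.8 CPM over the 9 libraries, and Utp3, at 125 to 147 CPM, were not called in any comparison.

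Large subunit factors followed the same overall order, with 11 of 13 lower in HD-het cells (median -0.75), 2 higher in HD-homo cells and a summed level of 58.8% and 107% of control. Bop1, Pes1 and Wdr12 form the PeBoW complex, which is needed for processing of the large subunit RNAs. Bop1 was at 174, 183 and 178 CPM in control, 77.1, 75.3 and 84.4 CPM in HD-het and 210, 157 and 189 CPM in HD-homo cells. Pes1 was at 264, 258 and 264 CPM, 145, 134 and 170 CPM, and 258, 229 and 243 CPM. For both genes the HD-het libraries were clearly the lowest. Wdr12 was at 149, 142 and 134 CPM, 89.5, 88.2 and 103 CPM, and 130, 123 and 145 CPM. The HD-het log2 fold changes were -1.18 ± 0.10 for Bop1 (adjusted p = 4.18e-06), -0.81 ± 0.10 for Pes1 (adjusted p = 2.99e-05) and -0.60 ± 0.09 for Wdr12 (adjusted p = 0.000200), and none of the 3 was called in HD-homo cells against control.

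Nop16, a factor of early large subunit particles, had the largest fall of the members with an assembly role. It stood at 111, 112 and 106 CPM in control, 41.1, 36.9 and 48.0 CPM in HD-het and 156, 118 and 153 CPM in HD-homo cells. The 3 lines were in separate ranges (HD-het -1.38 ± 0.12, adjusted p = 4.48e-06; HD-homo 0.38 ± 0.12, adjusted p = 0.0254). The rise in HD-homo cells was lost when any 1 of 5 libraries was left out, with an adjusted p of up to 0.0854, and with offsets for GC content and length (0.110). Nol8, a nucleolar protein with an RNA-binding domain, was at 51.7, 49.7 and 53.3 CPM, 37.9, 41.3 and 49.2 CPM, and 62.9, 66.1 and 81.5 CPM. It rose in HD-homo cells (0.44 ± 0.12, adjusted p = 0.0102), and its HD-het difference of -0.27 ± 0.12 did not pass (adjusted p = 0.0711).

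Nol12, an RNA-binding factor of precursor processing, varied more among replicates than its neighbours. It was at 149, 109 and 148 CPM in control, 64.6, 45.8 and 69.3 CPM in HD-het and 138, 227 and 183 CPM in HD-homo cells, and control and HD-homo overlapped. Its HD-homo level was above its HD-het level (1.61 ± 0.20, adjusted p = 3.09e-05). Rrp8, a methyltransferase-like nucleolar protein, ranged from 26.8 to 36.8 CPM over all 9 libraries and was not called in any comparison. Nop53, which recruits the exosome to the large subunit, fell modestly in HD-het cells (-0.34 ± 0.08, adjusted p = 0.00366).

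Of the nucleolar scaffold genes, Npm1 and Ncl held by far the most footprints per kilobase of coding sequence among all members. Nolc1 did not, at 116 CPM per kilobase in control cells. Npm1 (nucleophosmin, a histone and nucleolar chaperone) averaged 3374 CPM per kilobase in control cells and Ncl (nucleolin, an RNA-binding organizer of the nucleolus) 1808, ahead of Nop10 at 435. Npm1 was at 3003, 2964 and 2901 CPM in control, 1272, 1390 and 1586 CPM in HD-het and 3375, 3056 and 3551 CPM in HD-homo cells. The HD-het libraries held about 47.9% of the control level by the fitted fold (-1.06 ± 0.10, adjusted p = 4.42e-06), and all HD-homo libraries lay slightly above control without passing the threshold (0.17 ± 0.09, adjusted p = 0.163; -0.20 with offsets for GC content and length). Ncl was at 4036, 3609 and 3859 CPM, 2221, 2177 and 2530 CPM, and 3330, 3854 and 3981 CPM. It fell in HD-het cells (-0.73 ± 0.10, adjusted p = 6.10e-05) and overlapped control in HD-homo cells. Nolc1, a chaperone that carries snoRNPs, was at 246, 238 and 250 CPM, 113, 97.7 and 141 CPM, and 222, 191 and 220 CPM, with a fall in HD-het cells (-1.06 ± 0.12, adjusted p = 2.59e-05).

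**Figure D3:**
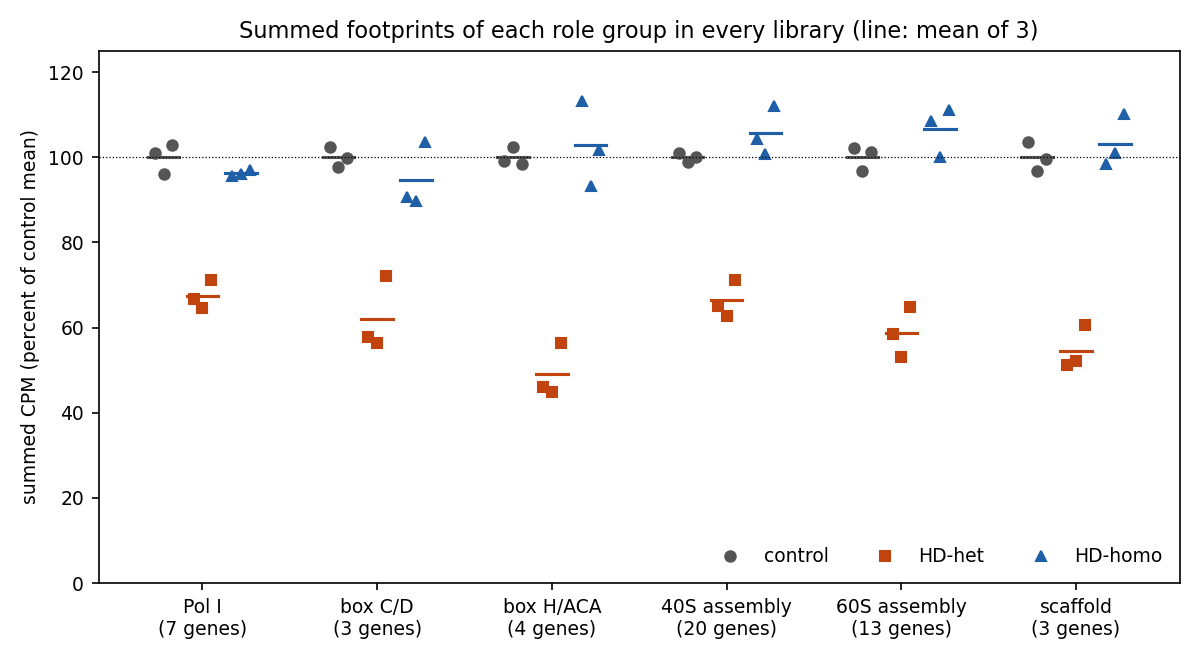
Summed footprint level of each role group in every library, as percent of that group's control mean, with 3 points per line and a bar at their mean. The HD-het sums lie between 49.0% and 67.4% of control on average and below every control and HD-homo library, and the HD-homo sums lie between 94.6% and 107%.

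The 3 genes with only a nucleolar name were scarce. Nol3 encodes ARC, an inhibitor of apoptosis. It was at 2.56, 2.40 and 2.37 CPM in control, 0.645, 0.688 and 1.32 CPM in HD-het and 0.529, 0.153 and 0.665 CPM in HD-homo cells. Both mutant lines were lower than control (HD-het -1.51 ± 0.34, adjusted p = 0.00255; HD-homo -2.44 ± 0.37, adjusted p = 0.000268). Nol4l held 7, 14 and 16 counts in control, 35, 34 and 15 in HD-het and 172, 85 and 83 in HD-homo cells, and was higher than control in both mutant lines (HD-het 1.33 ± 0.35, adjusted p = 0.00674; HD-homo 3.31 ± 0.31, adjusted p = 5.86e-06). Nol4 held 1 to 11 counts in a library and was not tested.

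Calls in HD-homo cells against control were less stable than those in HD-het cells. Of the 11 members called there, 4 kept the call in every alternative fit at the 0.05 threshold, whereas 45 of 45 did so in HD-het against control and 40 of 43 between the mutant lines. Offsets that remove each library's trend in GC content and length turned the 7 higher and 4 lower members into 4 higher and 11 lower. In that comparison, HD-homo against control, the offsets put the median at -0.05 for the members and for all genes alike. Shares of all genes called with the offsets are not given here. With these offsets the median of all genes moved by -0.17 in HD-het cells, and the members' median was -0.87 beside -0.13 for all genes, so the members still lay below the other genes. Members with exons on the opposite strand of another gene numbered 18, among them Bop1, Dkc1, Nhp2, Nop56, Pes1 and Wdr12. Whether the counting used strand is not given in the sources used here, so reads of such pairs cannot be told apart. Fbl, Npm1 and Pes1 have an annotated copy of at least 95% identity over more than 50% of the transcript, and that copy had no row in the table.

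**Figure D4:**
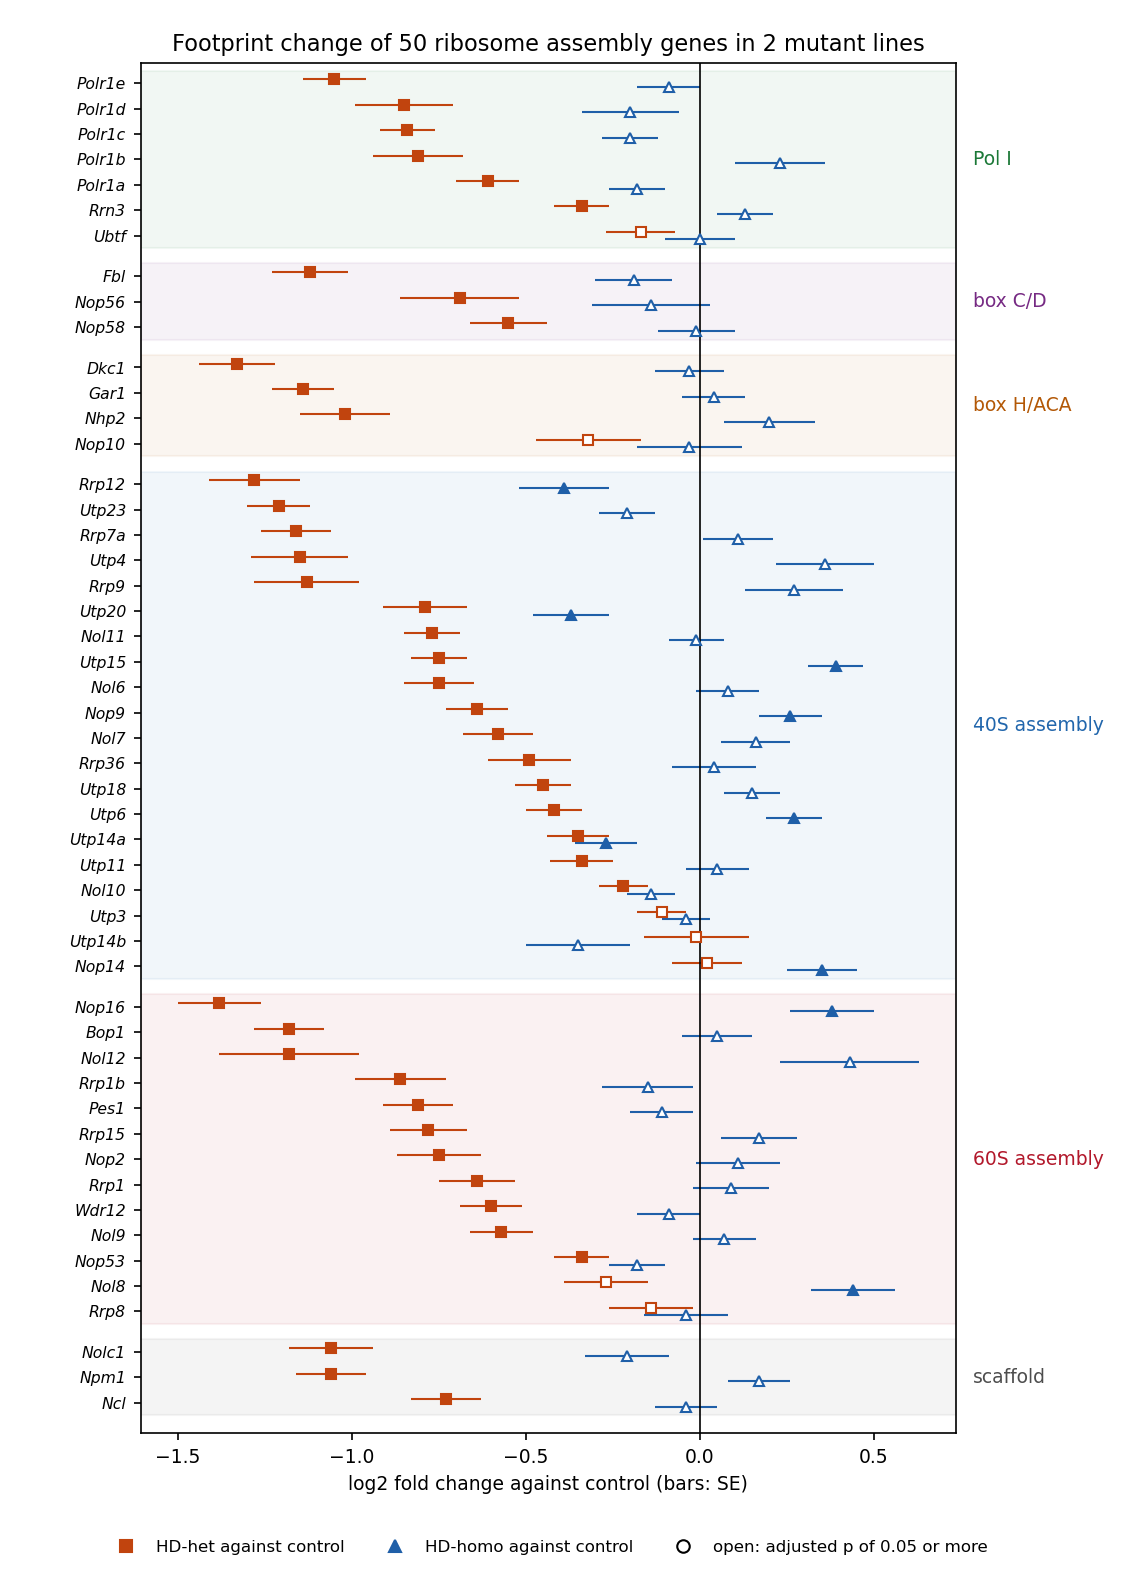
Fitted log2 fold change against control (bars: SE) of the 50 members with an assembly role, ordered by role and by the HD-het change; filled symbols passed an adjusted p of 0.05. Squares (HD-het) lie left of 0 for 49 of 50 genes, and triangles (HD-homo) lie on both sides of 0.

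The rest of the pathway was read from a fixed list of 135 other assembly genes, of which 134 were tested. In HD-het cells 117 fell and 3 rose (median -0.66), in HD-homo cells 15 fell and 20 rose (median 0.04), and between the mutant lines 114 stood higher in HD-homo and 3 in HD-het (median 0.74). Over all tested genes, 29.1% fell and 31% rose in HD-het cells, 22.3% fell and 23.3% rose in HD-homo cells, and 34.6% stood higher in HD-homo and 32.8% in HD-het, so the HD-homo shares of the list, 11.2% lower and 14.9% higher, were below those of all genes. By group, 10 of 13 other Pol I subunits and factors fell in HD-het cells, as did 9 of 10 other snoRNP proteins and assembly factors, 37 of 42 other 40S factors, 45 of 51 other 60S factors and 14 of 14 RNA exosome subunits. The largest falls were in Polr2f, a small subunit shared by RNA polymerases I, II and III (284 ± 64.3 to 84.8 ± 20.5 CPM, SD, n = 3), in Snu13, the box C/D core protein that binds the snoRNA (149 ± 21.7 to 47.2 ± 5.22 CPM), and in Nle1, a WD-repeat factor of the large subunit (33.8 ± 3.03 to 13.0 ± 0.568 CPM). With Snu13 at a log2 fold change of -1.66 ± 0.13 (adjusted p = 1.32e-06), every core protein of the box C/D particle fell in HD-het cells.

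Few pathway genes went the other way. Ttf1, the terminator of Pol I transcription, rose in both mutant lines (HD-het 0.40 ± 0.12, adjusted p = 0.0105; HD-homo 0.42 ± 0.12, adjusted p = 0.0114). Gnl3l, a nucleostemin-like GTPase, rose in HD-het cells by 0.22 ± 0.08 (adjusted p = 0.0292). In HD-homo cells the largest rises against control were in Shq1, the chaperone of dyskerin (0.71 ± 0.09, adjusted p = 8.19e-05), Taf1a, a subunit of the Pol I factor SL1 (0.67 ± 0.09, adjusted p = 7.51e-05), and Las1l, an endonuclease of the internal spacer (0.63 ± 0.11, adjusted p = 0.000600). The largest falls there were in Cebpz, a 60S factor (-0.46 ± 0.10, adjusted p = 0.00258), Polr2l, another shared polymerase subunit (-0.45 ± 0.10, adjusted p = 0.00371), and Pelp1, a partner of Las1l (-0.44 ± 0.09, adjusted p = 0.00267). Between the mutant lines Nip7, a 60S factor, was the largest difference after Polr2f and Snu13 (HD-het 79.5 ± 2.40 CPM, HD-homo 247 ± 39.7 CPM), and Riok3, a kinase of 40S maturation, was lower in HD-homo cells (-0.32 ± 0.10, adjusted p = 0.0112).

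The list also held 5 transcription factors of the MYC network, of which 4 were tested. Myc, the activator, averaged 357 ± 12.3 CPM for control, 168 ± 12.5 for HD-het and 288 ± 58.7 for HD-homo (SD, n = 3). It fell in HD-het cells (-1.09 ± 0.13, adjusted p = 3.72e-05), and its HD-homo difference of -0.31 ± 0.13 did not pass (adjusted p = 0.0727). Max, its obligate partner, fell in HD-het cells as well (-1.05 ± 0.11, adjusted p = 1.36e-05). Mxd1, which competes with MYC for MAX, was scarce and rose in HD-het cells from 2.44 ± 0.142 to 4.47 ± 0.277 CPM (0.88 ± 0.20, adjusted p = 0.00255). Mnt, a repressor of the same network, was lower in HD-homo than HD-het cells (-0.46 ± 0.14, adjusted p = 0.0141). The part of these factors in the members' levels was not tested.

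Other translation genes were set beside the members to see how far the pattern was shared. Of the cytosolic ribosomal proteins 84 of 86 fell in HD-het cells (median -0.70), of the mitochondrial ribosomal proteins 58 of 78 (median -0.50), and of the translation initiation and elongation factors 40 of 67 (median -0.37). The low HD-het level was therefore not particular to the assembly genes. Over the 9 libraries, the genes outside the list whose log2 CPM ran most like the members' mean were Rps19bp1 (Pearson r = 0.996), Got2 (0.995) and Tmcc3 (0.995). These points share libraries and differ mainly by line, so the values describe likeness only.

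**Figure D5:**
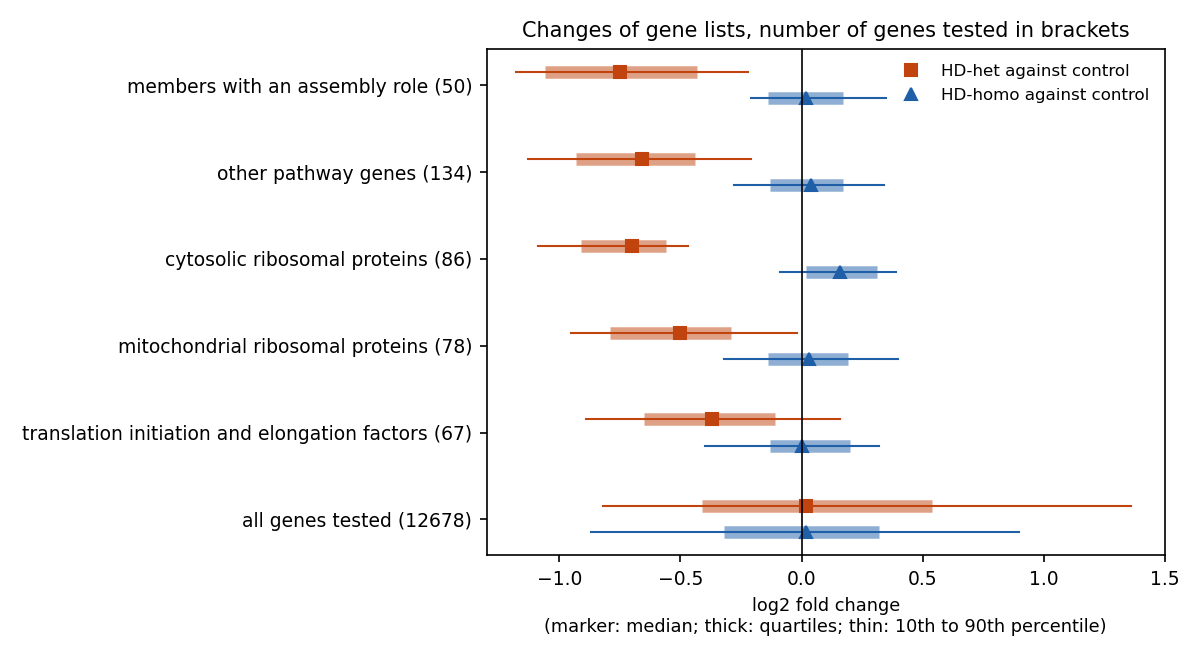
Log2 fold change against control of the members with an assembly role (50 genes), other pathway genes (134), 3 further translation lists and all 12678 genes tested, as the median (marker), quartiles (thick bar) and 10th to 90th percentile (thin bar). In HD-het cells the medians run from -0.75 for the members to -0.37 for the translation factors, against 0.02 for all genes.

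Cell state markers also differed among the lines, some in HD-het and some in HD-homo cells. Mesenchymal markers were 8 genes with Col1a1 and Acta2 among them, and 1 of them (Thy1) had at most 3 counts everywhere. Their sum was 8547 to 13179 CPM for control, 40320 to 49919 for HD-het and 7716 to 10745 for HD-homo. The HD-homo sum hid unlike genes. Acta2 fell there from 4100 ± 284 CPM in control to 268 ± 81.0 (SD, n = 3; log2 fold change -3.94 ± 0.21, adjusted p = 5.33e-08). Col1a1 stood at 3344 ± 966 CPM in control and 4568 ± 496 in HD-homo (adjusted p = 0.0639). Of 20 proliferation genes, 15 fell and 2 rose in HD-het cells (median -0.35), and the summed level of that list ran from 6904 to 7081 CPM for control, 5269 to 5496 for HD-het and 6738 to 6955 for HD-homo. Mki67, a marker of cycling cells, went against that list with 155 ± 5.48 CPM for control, 345 ± 23.4 for HD-het and 108 ± 22.0 for HD-homo (SD, n = 3). Markers of microglia, with Aif1, Cx3cr1 and Itgam at no more than 3 counts, summed to 5.00 to 6.84 CPM for control, 18.9 to 27.0 for HD-het and 4.82 to 6.21 for HD-homo. Oligodendrocyte markers, with Mog at no more than 3 counts, also stood highest in HD-het, at 5.79 to 6.53, 9.41 to 12.8 and 7.41 to 8.79 CPM, as did endothelial markers, with Cldn5 at no more than 3 counts, at 0.602 to 0.952, 1.86 to 2.32 and 0.382 to 1.06 CPM. Astrocyte markers, with Aqp4 at no more than 3 counts, were highest in HD-homo, at up to 14.1 CPM beside at most 4.01 for control and 3.07 for HD-het. The filter was passed by only 2 of 7 microglia, 1 of 5 oligodendrocyte, 1 of 5 endothelial and 2 of 5 astrocyte markers. Each of these 4 sums can thus rest on few genes and does not describe a whole marker set. The part of the marker differences in the members' low HD-het levels was not tested. In bulk footprints, fewer cells of a kind and fewer footprints per cell cannot be told apart.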

How the data were processed

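Footprints of 9 libraries (3 per line) were read from the gene table as deposited by the authors, which holds whole-number footprint counts for each gene symbol, not normalized and with 1 column per library. The submitters' processing notes name cutadapt, Bowtie 1.0.1 and build mm10. The counting program, annotation and use of strand are not given in the sources used here. Libraries were assigned to lines by sample title. No column was left unmapped (0). Of 36410 rows, 33871 (93%) matched a RefSeq symbol or an older one, and 26 rows carry a date in place of a symbol and name no gene.

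These counts entered edgeR 4.0.16 under R 4.3.3, with limma 3.58.1 loaded, and each comparison used its quasi-likelihood test after TMM scaling and filterByExpr by group, all 9 libraries in 1 fit and Benjamini-Hochberg adjustment over 12678 genes (threshold 0.05). Log2 fold changes carry the standard error (SE). No gene-level test of these libraries is stated in the methods, so the common count test was taken. No paired term was used. P-values set differences between lines against the spread between culture rounds within a line, pooled over the 3 lines. They do not measure the spread between lines of the same genotype. The script was tested on simulated data. Levels are CPM of TMM-scaled totals, and levels of different genes were compared only per kilobase of the longest GENCODE M21 coding sequence. Promoter windows are RefSeq sequence (GRCm38.p6). Near-identical copies were sought with blastn among GENCODE M21 transcripts.

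The members and lists were chosen with earlier results of these data known. Named with full values were a fixed core of 20 members, in each comparison up to 5 members with the largest rise and 5 with the largest fall past the threshold at a mean of at least 10 CPM, members called in opposite directions, and 3 other pathway genes per direction. Members given by range or outside that rule (Nop53, Rrp8, Utp3, Utp14b, Nol3, Nol4, Nol4l, and the genes of the MYC network) were chosen after their values were seen. Alternatives were RLE size factors, library totals, a table without the filter, a stricter filter (10 counts or more in each library), DESeq2 1.42.0, the 6 libraries compared alone, a replicate block, GC and length offsets (loess span 0.5, 98.1% of tested genes with values), the block with these offsets, an adjusted p-value under 0.01, and leaving out each library. A fit without the Utp11l row was added after the data were seen. Replicate pairs differed by more than sampling noise (chi-square per degree of freedom 8.1 to 52.7), so all libraries were counted. Protein sequence features, planned for the members, were not analysed here.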

Additional observations from a re-analysis of the deposited data

Results flagged for a closer look

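In 4 members the calls against control had opposite directions in the mutant lines. These genes were picked by those calls, and the difference between the lines is the distance between the same 2 changes. That this difference also passed was thus all but fixed in advance and is no further support. The share of all genes with opposite calls was not taken. The change in HD-homo minus the change in HD-het, on the log2 scale in edgeR, was 1.76 for Nop16 (adjusted p = 3.91e-07), 1.14 for Utp15 (adjusted p = 5.42e-07), 0.89 for Nop9 (adjusted p = 8.34e-06) and 0.69 for Utp6 (adjusted p = 1.42e-05). In each of the 4 genes all HD-het libraries lay below and all HD-homo libraries above the control libraries. Only the rise of Utp15 against control held in each alternative. The rises of Nop16, Nop9 and Utp6 were lost when 5, 8 and 3 of the 9 libraries, respectively, were left out one at a time. Groups of 3 libraries are too small for a test of single outlying libraries.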

How the results depend on the processing

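All 45 member calls of HD-het against control held in every alternative fit that tested the gene, at the 0.05 threshold, and so did 40 of 43 between the mutant lines, but only 4 of 11 of HD-homo against control. The calls between the mutant lines that were lost were those of Nop14 and Nop56, when single libraries were left out, and of Utp11 with offsets for GC content and length. With these offsets the members' median was -0.05 in HD-homo against control and 0.89 between the mutant lines (-0.05 and 0.88 with the replicate block added), 4 members rose and 11 fell in HD-homo against control (4 and 11 with the block), 29 other pathway genes fell there (32 with the block, and 13 rose), and 1 other pathway gene was lower in HD-homo than HD-het cells (1 with the block). With the offsets alone, the median of all genes was -0.05 in HD-homo against control and 0.10 between the mutant lines. Shares of all genes called with the offsets are not given here. Without a filter the members' median in HD-homo against control was -0.02. With at least 10 counts in every library 0 members rose in HD-het cells by edgeR, since Nol4l was no longer tested. At an adjusted p-value under 0.01, 2 members rose and 1 fell in HD-homo cells, 9 other pathway genes rose and 6 fell there, 1 rose in HD-het cells and 0 were lower in HD-homo than HD-het cells. Shares of all genes at this stricter threshold are not given here. Leaving out each library gave 3 to 10 members higher and 1 to 7 lower in HD-homo against control, 0 to 1 lower in HD-homo than HD-het cells, and for the other pathway genes 1 to 4 higher in HD-het and 12 to 21 higher in HD-homo cells against control and 2 to 5 lower in HD-homo than HD-het cells. Replicate numbers did not pair the libraries (correlations of same-numbered deviations -0.356 to 0.175), and the replicate block gave 1 member lower in HD-homo than HD-het cells. Between libraries of unlike number the correlations ran from -0.275 to 0.376, the highest for control replicate 2 with HD-homo replicate 1. A block by number does not cover likeness of that kind. Differences of named members that were not past the threshold changed sign in some fits. With GC and length offsets the HD-homo change against control was -0.04 for Gar1, 0.08 for Ncl, 0.11 for Nop58, -0.20 for Npm1, 0.07 for Polr1a, -0.01 for Rrn3, 0.07 for Ubtf and 0.02 for Wdr12 (-0.04, 0.08, 0.10, -0.20, 0.07, -0.01, 0.07 and 0.02 with the block). The HD-het change of Nop14 was -0.13 with offsets (-0.14 with the block), -0.04 with library totals and -0.02 without a filter. The difference of Nop10 between the mutant lines was -0.12 with offsets (-0.14 with the block). With library totals the HD-homo change was 0.02 for Nop58 and 0.03 for Ubtf, and that of Ubtf was 0.00 with at least 10 counts in every library and 0.00 with the replicate block. Leaving out each library, the HD-homo change ran from -0.05 to 0.16 for Bop1, -0.10 to 0.02 for Dkc1, -0.01 to 0.05 for Gar1, -0.09 to 0.03 for Ncl, -0.22 to 0.14 for Nop10, -0.27 to 0.02 for Nop56, -0.08 to 0.09 for Nop58 and -0.08 to 0.05 for Ubtf, and the HD-het change of Nop14 from -0.08 to 0.10. The cause of these shifts was not tested.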
